A study of Mus musculus with 9 samples.

Results

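The genes described here are the zinc finger protein genes whose mouse symbol is Zfp followed by a number. They were chosen from a count table of RENCA cells, a mouse renal carcinoma line: protein-coding genes with such a symbol, Zfp36 left out, whose counts summed to at least 180 over all 9 libraries. The rule kept 256 of the 54532 genes in the table. Of 364 protein-coding genes with a Zfp symbol and a number, 44 had no count in any library and 64 had a sum above 0 but under the minimum. The count sums just inside the limit were 200 for Zfp593, 237 for Zfp112 and 241 for Zfp58, and those just outside were 178 for Zfp78, 175 for Zfp473 and 168 for Zfp963. All 256 genes also passed the filter on low counts that came before the tests, and 251 had at least 10 counts in every library.

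Zinc finger proteins of the C2H2 kind fold short peptide loops around a zinc ion, held by a pair of cysteines and a pair of histidines, and a row of such fingers reads a stretch of DNA. Many carry a KRAB box at their start, which binds the corepressor Trim28. Trim28 then brings the methyltransferase Setdb1, and the chromatin around the bound site is silenced, best known at retrotransposons and imprinted genes. KRAB zinc finger genes arose by duplication and lie in clusters on the chromosomes. The Zfp symbol is also borne by proteins with other work, among them ribosome-bound ubiquitin ligases, RNA-binding proteins and mitotic proteins.

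The 3 lines of the same cells were compared, with 3 libraries of poly(A)-selected RNA each. Rescue cells were knockout cells in which Ndufa4l2 was expressed again from a lentivirus, under puromycin at 1.5 ug/mL. Knockout cells came from clones of single cells whose Ndufa4l2 gene had been edited with CRISPR. Its product is a mitochondrial protein akin to a subunit of the respiratory chain. Empty-vector cells, labelled wild type, were the reference. The effects of editing, of the choice of a clone and of lentivirus with puromycin cannot be told apart from that of Ndufa4l2 here. No label says whether each library had a culture of its own, so p-values here measure only how far these libraries vary, and that variation may be technical.

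Library totals ran between 15164167 and 26643877 counts in rescue cells, between 13106531 and 25305299 in knockout cells and between 14685134 and 24172162 in empty-vector cells. Ndufa4l2 itself had 73, 48 and 35 counts in rescue libraries, 7, 8 and 6 in knockout libraries and 12, 6 and 16 in empty-vector libraries, so it was low in the reference too. Mitochondrially encoded genes held 2.47 ± 0.21% of all counts in rescue cells, 7.01 ± 1.10% in knockout cells and 2.79 ± 0.55% in empty-vector cells (SD, n = 3 each). Of 6 epithelial markers Epcam and Krt19 had at most 2 counts in any library, and Krt8 was the highest, at 436 ± 7.0 CPM (scaled counts per 1000000) in rescue, 531 ± 30 in knockout and 297 ± 41 in empty-vector cells. Cdh1, the adhesion protein of epithelia, was at 2.46 ± 0.45 CPM in rescue, 99.6 ± 8.5 in knockout and 11.9 ± 3.0 in empty-vector cells. Of 7 renal tubule markers 6 were tested and Umod had no count. The leukocyte markers Ptprc, Cd3e and Tyrobp did not exceed 2 counts either. The summed level of the 7 leukocyte markers used was 39.0 to 44.4 CPM in rescue, 211 to 228 CPM in knockout and 78.3 to 84.0 CPM in empty-vector libraries. Nearly all of that sum was Cd68, a lysosomal protein, at 35.9 CPM in rescue, 205.0 CPM in knockout and 76.3 CPM in empty-vector cells. All 4 leukocyte markers tested rose in knockout against empty-vector cells and fell in rescue against knockout cells. In rescue, knockout and empty-vector cells, Lyz2 was at 1.15, 7.49 and 0.95 CPM. Csf1r was at 1.39, 3.87 and 1.08 CPM and Cd79a at 2.59, 4.43 and 2.95 CPM in the same order. Epithelial sums were 570 to 589 CPM in rescue, 761 to 809 CPM in knockout and 367 to 478 CPM in empty-vector libraries. Renal tubule sums were 760 to 831 CPM in rescue, 885 to 963 CPM in knockout and 632 to 763 CPM in empty-vector libraries. Those of 5 fibroblast markers, mostly Pdgfrb, were 28.3 to 30.4 CPM in rescue, 59.6 to 70.8 CPM in knockout and 26.3 to 33.3 CPM in empty-vector libraries, and those of 4 endothelial markers did not exceed 1.08 CPM.

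As a group, the Zfp genes were lower in both derived lines than in empty-vector cells. They took 0.504 ± 0.006% of all counts in rescue cells, 0.416 ± 0.012% in knockout cells and 0.552 ± 0.041% in empty-vector cells. After scaling of the libraries, their summed level was 4772, 4771 and 4871 CPM in rescue libraries, 4482, 4438 and 4584 CPM in knockout libraries and 5090, 5536 and 5466 CPM in empty-vector libraries. The groups did not overlap: every empty-vector library lay above every rescue library, and every rescue library above every knockout library. In bulk RNA, fewer cells that express a gene and less of its RNA per cell cannot be told apart. The share of mitochondrial counts and the summed epithelial, renal tubule, leukocyte and fibroblast markers were highest in knockout cells, where this sum was lowest, and the part of the markers in it was not tested. Leaving out the mitochondrial genes gave the same counts of Zfp genes called in both comparisons with empty-vector cells. That repeat took few genes out of a scaling that already trims extreme genes, so it could hardly differ. It says nothing about the mitochondrial share, whose part was not tested.

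Most of these genes were weakly expressed. Their mean FPKM, the authors' length-scaled level, had a median of 2.21 with quartiles of 1.06 and 4.17, against a median of 7.93 FPKM over all protein-coding genes tested. The lowest was Zfp90 at 0.183 FPKM and the highest Zfp598 at 39.5 FPKM. Of the 256 genes, 164 (64.1%) had their highest mean CPM in empty-vector cells, 54 in knockout cells and 38 in rescue cells. Over all 13326 genes tested, 34.1% were highest in empty-vector cells. The lowest mean was in knockout cells for 134 Zfp genes (52.3%; 39.9% of all genes), in rescue cells for 90 and in empty-vector cells for 32. The commonest order was empty vector, rescue, knockout from high to low, with 104 genes, and empty vector, knockout, rescue came next with 60. An F-test in edgeR over the 3 lines called 159 of the 256 (62.1%) at an adjusted p under 0.05, against 74.4% of all genes tested.

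The first comparison asked which Zfp genes differed in knockout cells from empty-vector cells. Of the 256, 115 fell, 19 rose and 122 were not called. The called share, 52.3%, was below the 60.6% of all genes tested that were called. The directions were uneven: 44.9% of Zfp genes fell, against 31.1% of all genes tested, and 7.42% rose, against 29.5%. Among other protein-coding genes 3593 rose and 3682 fell. The median log2 fold change was -0.27 for the Zfp genes and -0.02 for all genes tested, and 197 of the 256 lay below 0. The CPM values of the 2 groups did not overlap for 145 Zfp genes, 121 of them lower in knockout cells, against 63.7% of all genes tested in either direction. With libraries scaled by their totals alone, 146 fell and 10 rose, with a median of -0.43, while that of all genes tested moved to -0.17. Most changes were small, and 16 called genes (6.25%) passed 1 on the log2 scale, 14 of them downward, against 12.1% of all genes tested. Leaving out the 12 genes that would not reach 180 counts without the libraries of 1 group gave 111 that fell and 19 that rose among 244.

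**Figure D1:**
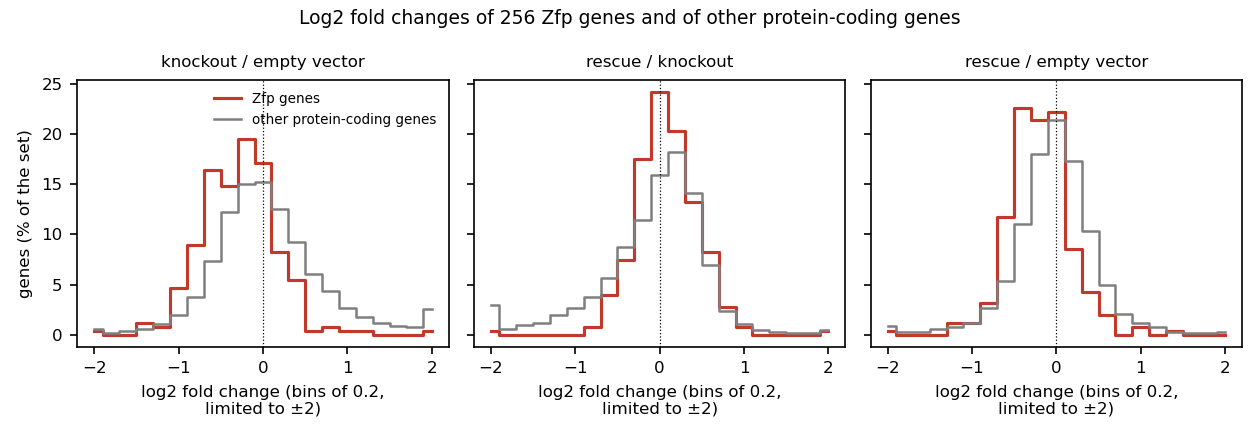
Share of genes (percent of each set, vertical axis) by log2 fold change (horizontal axis, bins of 0.2, values beyond 2 placed in the end bins) for the 256 Zfp genes and the other protein-coding genes tested, in 3 comparisons. The Zfp curve lies left of the other curve in both comparisons with empty vector, with medians of -0.27 and -0.23, and is centred near 0 for rescue against knockout, with a median of 0.06.

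Among other zinc finger families, Klf or Sp genes and Zscan or Zkscan genes also had negative medians in the same comparison. Over all genes tested, 31.1% fell and 29.5% rose. Of 35 Zbtb genes, which pair zinc fingers with a BTB domain, 6 fell (17.1%) and 10 rose (28.6%), with a median of 0.05. Of 20 Klf and Sp genes, which share 3 fingers near their ends and bind GC-rich DNA, 10 fell and 3 rose, with a median of -0.22. Of 15 Zscan and Zkscan genes, whose SCAN domain joins proteins in pairs, 5 fell (33.3%) and none rose, with a median of -0.23. These are counts side by side, and no difference between families was tested.

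The deepest fall was that of Zfp618, whose product is known to bind Uhrf2, a reader of modified cytosine. It had 4.28, 3.51 and 3.65 CPM in rescue libraries, 0.127, 0.330 and 0.169 CPM in knockout libraries and 2.57, 2.76 and 2.73 CPM in empty-vector libraries. The counts behind the knockout values were 2, 4 and 4. All knockout libraries lay far below the others, and the log2 fold change against empty vector was -3.74 ± 0.33 (SE; edgeR adjusted p = 1.2e-08). Zfp618 passed the limit of 180 counts only with its rescue libraries, so the rescue level helped to make it one of the genes described. It lies at chr4:62965573-63139708 on the plus strand (mm10), and of 13 other tested genes within 500000 bases 7 rose and 1 fell in knockout cells.

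Zfp948 had 19.3, 17.9 and 16.2 CPM in rescue libraries, 17.3, 13.96 and 12.9 CPM in knockout libraries and 30.4, 41.7 and 42.6 CPM in empty-vector libraries. Its knockout and rescue libraries lay together, below every empty-vector library. The log2 fold change of knockout against empty vector was -1.38 ± 0.14 (edgeR adjusted p = 7.8e-07). Zfp930 had 17.8, 17.5 and 20.4 CPM in rescue libraries, 9.28, 10.4 and 10.2 CPM in knockout libraries and 22.2, 27.1 and 26.03 CPM in empty-vector libraries. Here the 3 groups were in 3 separate ranges, with knockout lowest, and the fold change was -1.33 ± 0.10 (edgeR adjusted p = 2e-09). Zfp141 had 9.84, 11.3 and 10.5 CPM in rescue libraries, 6.10, 6.94 and 6.87 CPM in knockout libraries and 13.4, 16.1 and 16.5 CPM in empty-vector libraries, again with no overlap and the order empty vector, rescue, knockout from the top. Its log2 fold change of knockout against empty vector was -1.21 ± 0.12 (edgeR adjusted p = 4.2e-08). The other large decreases, Zfp184, Zfp995, Zfp661 and Zfp970, had log2 fold changes between -1.32 and -1.09, all with no overlap between the knockout and the empty-vector libraries.

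The rises in knockout cells were few. Zfp773 had 2.78, 3.07 and 2.39 CPM in rescue libraries, 4.96, 3.80 and 3.67 CPM in knockout libraries and 0.977, 1.03 and 1.08 CPM in empty-vector libraries. All knockout libraries lay above all rescue libraries, which lay above the empty-vector ones. The log2 fold change of knockout against empty vector was 2.00 ± 0.23 (edgeR adjusted p = 2.8e-07), the largest rise among the 256. Zfp41 had 27.1, 25.8 and 26.7 CPM in rescue libraries, 23.8, 24.2 and 27.7 CPM in knockout libraries and 12.9, 13.8 and 12.9 CPM in empty-vector libraries. It was about as high in rescue as in knockout cells, with overlapping libraries, and both lay above empty vector. Its log2 fold change of knockout against empty vector was 0.95 ± 0.09 (edgeR adjusted p = 2e-08). Zfp707 had 21.03, 14.95 and 18.4 CPM in rescue libraries, 23.6, 24.8 and 21.4 CPM in knockout libraries and 12.96, 14.3 and 13.7 CPM in empty-vector libraries, with a fold change of 0.77 ± 0.11 on the log2 scale in knockout against empty-vector cells (edgeR adjusted p = 6.8e-06). Zfp667, Zfp954, Zfp687 and Zfp87 rose by 0.47 to 0.89 on the log2 scale. For Zfp87 the adjusted p was 0.071 when libraries were scaled by their totals alone.

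The second comparison asked what differed in rescue cells from the knockout cells they were made from. Of the 256 genes, 63 rose, 30 fell and 163 were not called. The called share of 36.3% was below the 56.8% of all genes tested. In each direction, 24.6% of Zfp genes rose, against 29.5% of all genes tested, and 11.7% fell, against 27.3%. The median log2 fold change was 0.06, near the 0.03 of all genes. The CPM values of the 2 groups did not overlap for 124 Zfp genes, against 65.3% of all genes tested. Called changes past 1 on the log2 scale were 2 rises and 1 fall (1.17%), against 10.5% of all genes tested. With libraries scaled by their totals alone, 109 Zfp genes rose and 8 fell, so that 93.2% of the calls were rises, against 67.7% with the main scaling. That scaling moved the median of all genes to 0.22, and the Zfp median exceeded it by 0.03, as it did with the main scaling. This comparison shares the knockout libraries with the first, so a library that was low in knockout cells enters both.

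Zfp618, at 2 to 4 counts in knockout libraries, had the largest log2 fold change of rescue over knockout, at 4.26 ± 0.32. As it reached the limit of 180 counts only through its rescue libraries, this value is given as a description. Zfp395, which is known in human cells to be induced by hypoxia, had 7.77, 8.32 and 7.49 CPM in rescue libraries, 4.13, 3.47 and 3.67 CPM in knockout libraries and 4.26, 3.41 and 3.37 CPM in empty-vector libraries. The rescue libraries stood above all others, and knockout and empty vector overlapped. The log2 fold change of rescue against knockout was 1.06 ± 0.15 (edgeR adjusted p = 6.8e-06), and that of knockout against empty vector was 0.03 ± 0.16 (edgeR adjusted p = 0.9). Zfp931 had 6.27, 7.78 and 5.79 CPM in rescue libraries, 3.62, 2.64 and 3.71 CPM in knockout libraries and 3.995, 4.11 and 4.45 CPM in empty-vector libraries, likewise highest in every rescue library. Its log2 fold change of rescue against knockout was 0.96 ± 0.17 (edgeR adjusted p = 7.9e-05).

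Zfp277, known in mouse fibroblasts for helping the Polycomb protein Bmi1 to the Ink4a/Arf locus, had 45.4, 43.3 and 47.3 CPM in rescue libraries, 26.4, 28.6 and 28.5 CPM in knockout libraries and 35.7, 32.5 and 30.8 CPM in empty-vector libraries. The groups did not overlap, and rescue was the highest. The rise of rescue over knockout was 0.70 ± 0.07 (edgeR adjusted p = 1.4e-07) and that over empty vector 0.46 ± 0.07 (edgeR adjusted p = 3.7e-05). Zfp930, one of the deep falls in knockout cells, rose by 0.90 ± 0.11 in rescue cells (edgeR adjusted p = 6.1e-07) and remained below empty vector, by -0.43 ± 0.10 (edgeR adjusted p = 0.00096). Zfp37 rose by 0.79 ± 0.19 (edgeR adjusted p = 0.0014). The rises of Zfp184 and Zfp976, at 0.80 and 0.71, depended on single libraries. Without rescue replicate 3 that of Zfp184 was 0.43 (edgeR adjusted p = 0.21), and it missed the threshold without any 1 of the knockout libraries (0.057 to 0.072). That of Zfp976 was 0.54 without rescue replicate 1 (edgeR adjusted p = 0.078) and 0.64 without knockout replicate 3 (0.054).

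The deepest fall in rescue cells was that of Zfp991, at chr4:147132038-147180579 on the plus strand (mm10). It had 1, 1 and 0 counts in rescue libraries, 127, 129 and 259 counts in knockout libraries and 84, 69 and 128 counts in empty-vector libraries. The rescue sum of 2 counts against 515 in knockout cells was a 311-fold lower level, with a 95% counting interval of 85.6 to 2570. Against the 281 counts of empty-vector cells it was 139-fold lower, with an interval of 38 to 1150. These intervals cover counting error only. The fitted log2 fold changes were -8.01 ± 0.37 (edgeR adjusted p = 1.1e-12) and -6.85 ± 0.41 (edgeR adjusted p = 2.5e-10), and they depend on how the fit treats counts near 0. Knockout cells exceeded empty-vector cells, by 1.15 ± 0.17 (edgeR adjusted p = 8.1e-06).

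Reads of Zfp991 are hard to place. Of the 75-base stretches of its transcript, 80.0% also occur in transcripts of other genes, most often in those of Znf41-ps, so its counts are uncertain. Znf41-ps had at most 3 counts in any library and 0 in every rescue library. The relatives Zfp600 and Zfp990 had at most 2. Within 500000 bases of Zfp991, 3 other genes were tested, and all 3 rose in rescue against knockout cells, by 0.66 to 1.37 on the log2 scale. The low counts of Zfp991 in rescue cells were thus not shared by these neighbours.

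**Figure D2:**
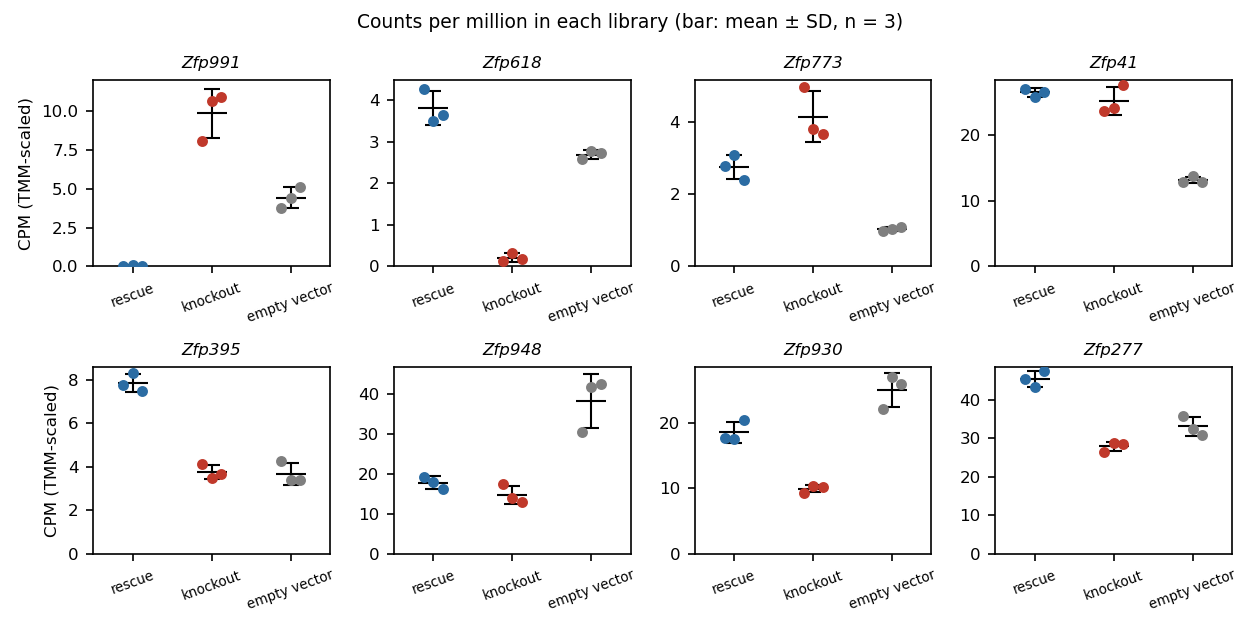
Level (CPM, TMM-scaled, linear axes from 0) of 8 Zfp genes in each library of rescue, knockout and empty-vector cells, with points for libraries and bars for the mean ± SD of 3. Zfp991 was near 0 in rescue cells and Zfp618 in knockout cells, Zfp395 was highest in rescue, Zfp41 was high in rescue and knockout, and Zfp948 was high in empty-vector cells.

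Other falls in rescue against knockout cells were smaller. Zfp316 had 8.70, 9.42 and 10.8 CPM in rescue libraries, 15.1, 15.9 and 15.7 CPM in knockout libraries and 14.03, 18.8 and 17.2 CPM in empty-vector libraries. Its rescue libraries lay below all others, and knockout and empty vector overlapped. The log2 fold change of rescue against knockout was -0.70 ± 0.12 (edgeR adjusted p = 4.4e-05). Zfp263 had 36.9, 33.5 and 39.00 CPM in rescue libraries, 53.5, 55.3 and 53.3 CPM in knockout libraries and 42.5, 50.9 and 49.1 CPM in empty-vector libraries, with a fold change of -0.57 ± 0.08 (edgeR adjusted p = 3.3e-06). Zfp628 and Zfp462 fell by 0.57 and 0.61. Calls for 3 further genes with falls of 0.58 to 0.76 missed the threshold when a library was left out. Without knockout replicate 3 Zfp747 was at -0.55 (edgeR adjusted p = 0.054). Zfp641 was at -0.66 without knockout replicate 1 (0.054), -0.55 without knockout replicate 2 (0.10), -0.59 without rescue replicate 2 (0.081) and -0.58 without rescue replicate 3 (0.078). Zfp773 was at -0.43 without knockout replicate 1 (0.10) and at -0.50 without rescue replicate 3 (0.065).

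The third comparison set rescue cells against empty-vector cells. Of the 256 genes, 99 fell, 16 rose and 141 were not called. The called share was 44.9%, against 47.5% of all genes tested. By direction, 38.7% fell, against 25.1% of all genes tested, and 6.25% rose, against 22.4%. The median log2 fold change was -0.23, against -0.02 for all genes tested, and 195 of the 256 lay below 0. The CPM values of the 2 groups did not overlap for 133 Zfp genes, 108 of them lower in rescue cells, against 55.1% of all genes tested. Past 1 on the log2 scale were 3 rises and 5 falls (3.12%), against 5.41% of all genes tested. The Zfp genes were thus lower than in empty-vector cells in both lines derived by editing. This comparison shares its empty-vector libraries with the first.

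Zfp160 had 8.66, 8.27 and 6.92 CPM in rescue libraries, 9.92, 8.10 and 7.58 CPM in knockout libraries and 13.9, 19.7 and 20.5 CPM in empty-vector libraries. The rescue and knockout ranges overlapped, and all 6 libraries lay below the empty-vector ones. The log2 fold change of rescue against empty vector was -1.17 ± 0.15 (edgeR adjusted p = 4.4e-06). Zfp945 had 9.48, 8.93 and 10.1 CPM in rescue libraries, 13.5, 14.8 and 12.3 CPM in knockout libraries and 20.1, 20.7 and 20.5 CPM in empty-vector libraries. It stepped down across 3 separate ranges, with rescue the lowest, and its log2 fold change against empty vector was -1.11 ± 0.10 in rescue cells (edgeR adjusted p = 3.2e-08). Zfp429, at -1.17, is one of the genes that reach 180 counts only with the empty-vector libraries. Of the rises over empty vector, Zfp41, at 1.01 ± 0.09 (edgeR adjusted p = 2.2e-08), Zfp773, at 1.41 ± 0.23 (edgeR adjusted p = 5.1e-05), and Zfp395, at 1.09 ± 0.15 (edgeR adjusted p = 6.9e-06), were past 1. The rise of Zfp667, at 0.69, was 0.47 without empty-vector replicate 3 (edgeR adjusted p = 0.12) and 0.62 without rescue replicate 2 (0.066).

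By chromosome, the Zfp genes were most numerous on chromosome 7, with 67, and chromosome 17, with 35. On chromosome 7, 28 fell and 5 rose in knockout against empty-vector cells, with a median log2 fold change of -0.25, and the other protein-coding genes there had a median of 0.02. On chromosome 17, 20 fell and none rose, with a median of -0.46 against -0.01 for the other genes. Chromosome 13 had 22 Zfp genes, of which 11 fell and 1 rose, with a median of -0.48. The other genes of chromosome 13 were lower too, with a median of -0.22. Among chromosomes with at least 5 of the genes, the median was above 0 on chromosome 15, at 0.06, where 4 of 9 fell and 3 rose, and on chromosome 16, at 0.10, where 2 of 5 rose and none fell. The other genes of chromosome 16 had a median of 0.27. On chromosome 17 the median of rescue against empty vector was -0.28 and 15 of 35 fell. In rescue against knockout cells, 6 of the 35 rose and 1 fell.

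**Figure D3:**
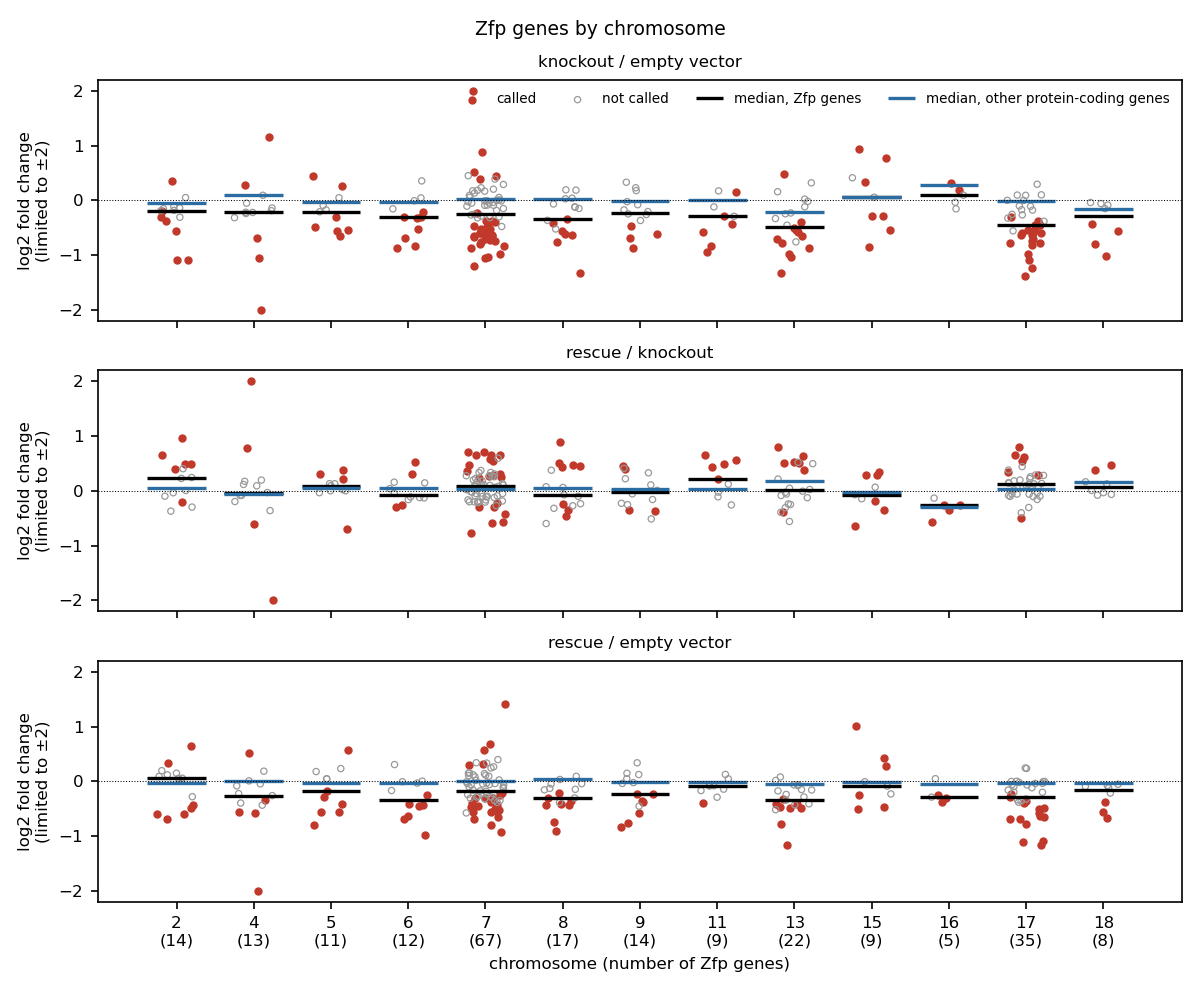
Log2 fold change (vertical axis, limited to 2 either way) of each Zfp gene by chromosome (horizontal axis, chromosomes with at least 5 of the genes) in 3 comparisons; filled points were called, black bars are medians of Zfp genes and blue bars medians of other protein-coding genes. In knockout against empty vector the black bar of chromosome 17 lies at -0.46 and its blue bar at -0.01.

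Zfp genes that stood at most 500000 bases from the next were joined, and runs of at least 4 were counted as clusters. There were 16 clusters with 118 genes, of which 91 encode a KRAB box. In knockout against empty-vector cells 47 of the clustered genes fell (39.8%) and 5 rose (4.24%). Of the 138 outside clusters 68 fell (49.3%) and 14 rose (10.1%), and the medians were -0.27 in clusters and -0.28 outside. Of all genes tested, 31.1% fell and 29.5% rose. Set against knockout cells, rescue cells had 14 clustered genes that rose (11.9%) and 12 that fell (10.2%). Outside clusters 49 rose (35.5%) and 18 fell (13.0%), and of all genes tested 29.5% rose and 27.3% fell. The clustered genes were also the weaker expressed, with a median of 1.58 FPKM against 2.73 FPKM, and weak genes are called less often. No difference between clustered and other genes was tested.

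The largest cluster held 20 genes at chr17:21008903-23564238 (mm10), with Zfp160 at one end and Zfp213 at the other, and 19 of them encode a KRAB box. In knockout cells 13 of the 20 fell (65.0%, against 31.1% of all genes tested) and none rose. Their median was -0.57, and 19 of the 20 had a fold change below 0. In rescue against empty-vector cells 11 fell (55.0%, against 25.1% of all genes tested) and none rose, with a median of -0.39. Between rescue and knockout cells Zfp760 rose and Zfp945 fell, and 18 were not called. That is 5.0% each way, against 29.5% of all genes tested that rose and 27.3% that fell. Both tallies of falls rest partly on calls near the threshold. That of Zfp944 in knockout cells missed it without empty-vector replicate 3 (-0.37, edgeR adjusted p = 0.098), knockout replicate 2 (-0.42, 0.069) or knockout replicate 3 (-0.46, 0.058). In rescue against empty-vector cells Zfp229 missed it without empty-vector replicate 3 (-0.30, 0.090) or rescue replicate 1 (-0.32, 0.063) or 2 (-0.33, 0.059). Zfp51 missed it without empty-vector replicate 3 (-0.31, 0.11) or rescue replicate 1 (-0.37, 0.062), and Zfp758 without rescue replicate 1 or 2 (-0.43, 0.075 each). Of the 15 Zfp genes elsewhere on chromosome 17, 7 fell and none rose in knockout cells. Only 2 other protein-coding genes in this stretch were tested, and they were low too: their median was -0.54 in knockout and -0.59 in rescue against empty-vector cells, and 1 of the 2 fell in each.

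Within the cluster the genes differed. Zfp942 had 13.9, 14.02 and 13.6 CPM in rescue libraries, 13.9, 12.2 and 12.1 CPM in knockout libraries and 19.6, 24.6 and 22.9 CPM in empty-vector libraries, with its derived lines together below empty vector. Its log2 fold change of knockout against empty vector was -0.81 ± 0.10 (edgeR adjusted p = 1.1e-06). Zfp946 had 12.4, 10.8 and 12.4 CPM in rescue libraries, 10.8, 10.5 and 11.1 CPM in knockout libraries and 16.2, 19.2 and 20.3 CPM in empty-vector libraries, with a fold change of -0.78 ± 0.11 (edgeR adjusted p = 3.6e-06). Zfp760 had 15.6, 14.95 and 15.2 CPM in rescue libraries, 11.8, 10.5 and 9.35 CPM in knockout libraries and 15, 15.1 and 15.6 CPM in empty-vector libraries. Here rescue and empty vector overlapped and every knockout library was lower, and the rise of rescue over knockout was 0.54 ± 0.10 (edgeR adjusted p = 0.00014). Zfp52 was the one gene of the cluster above 0 in knockout cells, at 0.29 ± 0.20 (edgeR adjusted p = 0.22), and its libraries overlapped.

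**Figure D4:**
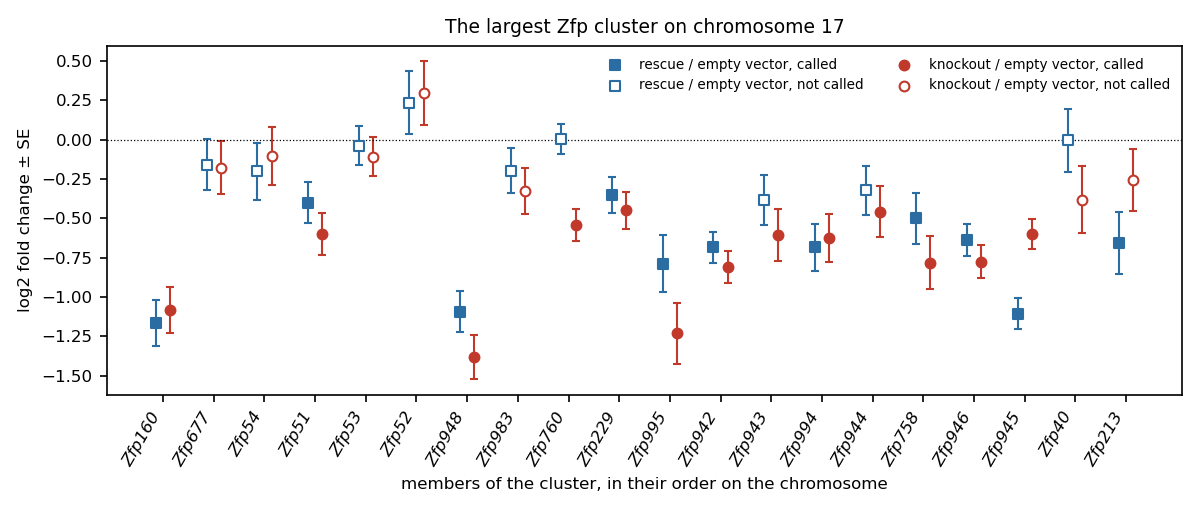
Log2 fold change ± SE (vertical axis) of the 20 genes of the largest cluster on chromosome 17, in their chromosome order, for rescue against empty vector (squares) and knockout against empty vector (circles), filled where called. Zfp948 and Zfp160 are among the lowest in both, Zfp760 is called in knockout cells but not in rescue cells, and Zfp52 is not called in either.

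Promoter windows of 6 genes from this cluster show how alike neighbouring genes can be at their starts. Each is the 250 bases before the start in RefSeq (GRCm38.p6), 5′ to 3′ on the strand of the gene. Against empty vector, Zfp948 had the largest fall of the cluster in knockout cells and Zfp160 that in rescue cells, and the other 4 are the distinct places where the letters CACGTG, an E box read by basic helix-loop-helix factors, occur. Capitals mark CACGTG and the GC box GGGCGG or its reverse complement CCGCCC.
Zfp948, chr17:21566728-21566977, plus strand: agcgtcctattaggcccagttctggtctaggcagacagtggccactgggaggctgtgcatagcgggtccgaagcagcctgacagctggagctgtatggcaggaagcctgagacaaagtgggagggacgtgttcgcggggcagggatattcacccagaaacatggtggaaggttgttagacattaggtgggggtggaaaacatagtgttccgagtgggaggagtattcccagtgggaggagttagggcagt
Zfp160, chr17:21008691-21008940, plus strand: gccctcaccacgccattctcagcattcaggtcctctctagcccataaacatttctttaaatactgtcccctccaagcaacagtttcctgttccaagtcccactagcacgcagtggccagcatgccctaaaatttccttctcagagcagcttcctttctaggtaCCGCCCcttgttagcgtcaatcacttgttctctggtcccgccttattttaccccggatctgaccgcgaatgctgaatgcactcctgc
Zfp942, chr17:21962465-21962714, minus strand: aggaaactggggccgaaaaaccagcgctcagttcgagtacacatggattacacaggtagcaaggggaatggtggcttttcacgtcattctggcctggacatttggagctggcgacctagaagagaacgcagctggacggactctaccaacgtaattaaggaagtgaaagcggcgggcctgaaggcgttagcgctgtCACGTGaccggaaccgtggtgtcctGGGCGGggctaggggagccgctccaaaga
Zfp944, chr17:22361401-22361650, minus strand: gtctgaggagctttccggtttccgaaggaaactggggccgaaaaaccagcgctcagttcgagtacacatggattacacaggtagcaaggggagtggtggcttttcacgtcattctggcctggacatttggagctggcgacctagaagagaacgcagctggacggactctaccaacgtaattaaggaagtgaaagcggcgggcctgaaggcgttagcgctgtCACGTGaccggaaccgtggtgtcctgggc
Zfp946, chr17:22423952-22424201, plus strand: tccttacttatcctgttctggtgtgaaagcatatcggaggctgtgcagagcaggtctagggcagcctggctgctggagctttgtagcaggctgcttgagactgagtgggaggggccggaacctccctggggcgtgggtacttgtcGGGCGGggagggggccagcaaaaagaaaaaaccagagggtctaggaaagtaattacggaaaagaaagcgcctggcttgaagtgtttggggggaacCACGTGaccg
Zfp994, chr17:22225615-22225864, minus strand: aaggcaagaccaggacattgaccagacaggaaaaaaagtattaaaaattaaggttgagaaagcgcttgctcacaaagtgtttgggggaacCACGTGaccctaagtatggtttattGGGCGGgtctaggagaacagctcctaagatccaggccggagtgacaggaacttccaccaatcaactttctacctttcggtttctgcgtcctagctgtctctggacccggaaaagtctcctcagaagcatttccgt
Zfp942 and Zfp944 share an unbroken run of 157 bases, Zfp946 and Zfp994 one of 17 bases, and Zfp948 and Zfp160 share no more than 9. The E box lies 54 bases before the start of Zfp942, 29 before that of Zfp944, 10 before that of Zfp946 and 160 before that of Zfp994. Zfp948 has neither motif in this window.

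RefSeq gave 256 windows for 212 of the 256 genes, matched by symbol, each running from 250 bases before to 50 after a start. Both strands were searched. CACGTG stood in 6.6% of the Zfp windows and in 7.2% of all 32851 windows, and in 6 of the 20 windows of the chromosome 17 cluster, where overlapping windows of divergent genes reduce the 6 to 4 places. GGGCGG stood in 47.7% of Zfp windows against 35.7% of all, and CCAAT in 47.7% against 37.4%. The ETS core CCGGAAGT stood in 11.7% against 3.9%, and TATAAA in 5.5% against 13.6%. The windows had a median GC content of 56.2%, against 52.7% over all, and a median of 16 CpG pairs, against 7. The full set covered 27025 gene symbols and was not limited by gene type or expression, as the Zfp set was. Shares of motifs can depend on such differences and on base composition. These were not matched between the sets, and their part was not tested. A match describes letters in a window, not binding.

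The encoded proteins were read from the coding sequences of GENCODE M21. All 256 had one, and the median number of C2H2 fingers found was 10.5. Zfp142 had the most, with 37, and Zfp839, Zfp503, Zfp703, Zfp330 and Zfp185 had none by the pattern used. A KRAB box was found in 140 proteins, with a median of 12 fingers, against 7 in the 116 without one. In knockout against empty-vector cells 59 KRAB genes fell (42.1%) and 5 rose (3.57%), with a median of -0.30. Of genes without KRAB 56 fell (48.3%) and 14 rose (12.1%), with a median of -0.23. Of all genes tested, 31.1% fell and 29.5% rose. Rescue against knockout gave 22 KRAB genes that rose (15.7%) and 11 that fell (7.86%). Without KRAB 41 rose (35.3%) and 19 fell (16.4%), and of all genes tested 29.5% rose and 27.3% fell. In rescue against empty-vector cells 53 KRAB genes fell (37.9%) and 5 rose (3.57%). Without KRAB 46 fell (39.7%) and 11 rose (9.48%), and of all genes tested 25.1% fell and 22.4% rose. The KRAB genes were also the weaker expressed, with a median of 1.53 FPKM against 3.27 FPKM, and precision differs with level. Ranked by FPKM and split into 4 sets of 64, the lowest set had 15 genes that fell in knockout cells, the next 29, the next 33 and the highest 38. The median log2 fold changes of these sets were -0.24, -0.26, -0.24 and -0.30.

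Of 12 KRAB proteins listed for a described role, 8 were among the 256. In knockout cells 5 of the 8 fell and none rose, a called share of 62.5%, near the 60.6% of all genes tested. Zfp568, which silences a placental transcript of Igf2, had 28.9, 27.9 and 31.01 CPM in rescue libraries, 27.2, 26.1 and 28.4 CPM in knockout libraries and 44.9, 48.1 and 48.9 CPM in empty-vector libraries. The rescue and knockout ranges overlapped and both were below empty vector, with a log2 fold change of -0.79 ± 0.07 in knockout cells (edgeR adjusted p = 1.4e-08) and -0.69 ± 0.07 in rescue cells (edgeR adjusted p = 2.1e-07). Zfp961 had 20.2, 20.05 and 22.1 CPM in rescue libraries, 13.6, 16.2 and 14.2 CPM in knockout libraries and 20.3, 21.2 and 22.8 CPM in empty-vector libraries. Its knockout libraries alone were low, with -0.55 ± 0.09 against empty vector (edgeR adjusted p = 3.8e-05) and a rise of 0.51 ± 0.09 in rescue (edgeR adjusted p = 0.00012). Zfp445, which protects imprinted methylation, was at -0.47 ± 0.13 in knockout against empty-vector cells (edgeR adjusted p = 0.0061). Zfp110 and Zfp369, known as partners of the neurotrophin receptor p75, were at -0.47 and -0.79. Zfp809, which silences leukemia proviruses, was at -0.26 ± 0.13 in knockout cells (edgeR adjusted p = 0.091), with overlapping libraries. In rescue against knockout cells 3 of the 8 rose (37.5%, against 29.5% of all genes tested) and none fell, against 27.3%. The calls of 2 of these 3, Zfp809 and Zfp369, were lost in at least 1 repeat of the test that left out a library. Against empty vector 4 fell and 1 rose in rescue cells, and 3 of these 5 calls were lost in the same way.

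Of 24 transcription factors and developmental regulators listed, 20 were among the genes. In knockout cells 8 fell and 4 rose, and the called share of 60% was near that of all genes tested, 60.6%. Zfp609, known in neural progenitors as a partner of Nipbl, had 81.3, 78.2 and 84.5 CPM in rescue libraries, 53.8, 60.4 and 63.2 CPM in knockout libraries and 86.1, 104 and 96.5 CPM in empty-vector libraries. Its groups did not overlap, with knockout lowest and a log2 fold change of -0.69 ± 0.08 (edgeR adjusted p = 1.9e-07). Zfp281, a regulator of pluripotency, had 47.5, 45.7 and 43.7 CPM in rescue libraries, 37.6, 34.7 and 36.7 CPM in knockout libraries and 43.2, 46.2 and 44.1 CPM in empty-vector libraries, with rescue and empty vector overlapping above knockout. Its log2 fold change was -0.29 ± 0.07 in knockout against empty-vector cells (edgeR adjusted p = 0.00094) and 0.33 ± 0.07 in rescue against knockout cells (edgeR adjusted p = 0.00031). Zfp217, described as an oncogene in human breast cancer, had 23.4, 22.02 and 24.8 CPM in rescue libraries, 27.3, 28.3 and 25.7 CPM in knockout libraries and 20.6, 22.5 and 20.3 CPM in empty-vector libraries, and was higher in every knockout library than in empty vector, by 0.36 ± 0.08 (edgeR adjusted p = 0.00089; 0.053 with library totals alone). Zfp148, which binds GC-rich DNA, was lower in rescue than in either other line, at -0.27 ± 0.06 against knockout (edgeR adjusted p = 0.00088), and that call was lost with library totals alone, at -0.08 (0.28). In rescue against knockout cells 8 of the 20 rose and 5 fell, and in rescue against empty vector 7 fell and none rose. Leaving out libraries 1 at a time lost 4 of the 12 calls in knockout cells, 7 of the 13 in rescue against knockout cells and 4 of the 7 in rescue against empty-vector cells.

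Zfp410, known in mouse and human cells for activating Chd4 and few other genes, had 45.4, 44.1 and 43.5 CPM in rescue libraries, 42.6, 40.4 and 39.98 CPM in knockout libraries and 56.4, 53.8 and 56.4 CPM in empty-vector libraries. The empty-vector libraries were highest, with a log2 fold change of -0.44 ± 0.06 in knockout cells (edgeR adjusted p = 5.6e-06) and -0.32 ± 0.06 in rescue cells (edgeR adjusted p = 0.00025). In rescue against knockout cells Zfp410 was not called, at 0.12 (edgeR adjusted p = 0.13). Chd4, a remodelling enzyme of a deacetylase complex, was at 0.50 in knockout against empty-vector cells (edgeR adjusted p = 1.9e-06). In rescue cells Chd4 was at -0.50 against knockout (edgeR adjusted p = 2.4e-06) and at 0.002 against empty vector (edgeR adjusted p = 0.98).

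A mixed list joined Zfp genes with work on RNA, translation, mitosis or ubiquitin to genes with other roles. Among the latter were Zfp277, Zfp706, Zfp687 and Zfp592, so the tallies of this list cannot be credited to any of these functions alone. The list included 5 of the 6 most abundant of the 256 by FPKM, Zfp706 among them. Of 18 listed, 17 were among the genes, and in knockout cells 13 fell and 1 rose, so that 76.5% fell, against 31.1% of all genes tested. In rescue against knockout cells 9 rose (52.9%, against 29.5% of all genes tested) and 3 fell (17.6%, against 27.3%). In rescue against empty-vector cells 7 fell (41.2%, against 25.1%) and 3 rose (17.6%, against 22.4%). Abundant genes are also measured more precisely, and these comparisons share libraries. Zfp598, the ubiquitin ligase that marks collided ribosomes, had 139.6, 132 and 144 CPM in rescue libraries, 113, 110.0 and 116 CPM in knockout libraries and 136, 141 and 143 CPM in empty-vector libraries. Rescue and empty vector overlapped, and every knockout library was lower, with a log2 fold change of -0.31 ± 0.06 against empty vector (edgeR adjusted p = 0.00012) and a rise of 0.29 ± 0.06 in rescue (edgeR adjusted p = 0.00025). Zfp106, an RNA-binding protein needed by motor neurons, had 268, 269.6 and 279 CPM in rescue libraries, 199, 192 and 191 CPM in knockout libraries and 245, 266 and 241 CPM in empty-vector libraries. Knockout was again lowest and did not overlap, at -0.37 ± 0.06 against empty vector (edgeR adjusted p = 2.8e-05). Zfp207, a mitotic partner of Bub3, and Zfp706, known to limit Klf4 in embryonic stem cells, were both at -0.29 in knockout against empty-vector cells.

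Zfp330, a nucleolar protein, had 66.00, 67.8 and 68.8 CPM in rescue libraries, 48.5, 43.7 and 55.7 CPM in knockout libraries and 81.8, 82.3 and 86.6 CPM in empty-vector libraries. It was lowest in knockout cells with no overlap, at -0.75 ± 0.07 (edgeR adjusted p = 4.7e-08). Of its 75-base stretches 21.8% occur in other transcripts, and so do 24.7% of those of Zfp106. Zfp91, a ubiquitin ligase of the NF-kappa-B pathway, had 221, 247 and 248 CPM in rescue libraries, 192, 185 and 203 CPM in knockout libraries and 212, 186 and 198 CPM in empty-vector libraries. It did not differ detectably between knockout and empty vector, at -0.04 ± 0.07 (edgeR adjusted p = 0.63), and rose by 0.30 ± 0.07 in rescue (edgeR adjusted p = 0.00078). Zfp687 and Zfp592 belong to a common complex with Zmynd8. Zfp687 was the one gene of the list that rose in knockout cells, at 0.49 ± 0.07 (edgeR adjusted p = 5e-06), and Zfp592 fell by 0.53. Leaving out libraries 1 at a time lost 3 of the 14 calls in knockout cells (Zfp277, Zfp451 and Zfp638), 2 of the 12 in rescue against knockout cells and 2 of the 10 in rescue against empty-vector cells. Among the most abundant genes Zfp503, a corepressor of development, went the other way, with 111, 119 and 114 CPM in rescue libraries, 140.2, 144 and 151 CPM in knockout libraries and 122, 133 and 131 CPM in empty-vector libraries. It was at -0.33 ± 0.06 in rescue against knockout cells (edgeR adjusted p = 9.1e-05; 0.051 with library totals alone).

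**Figure D5:**
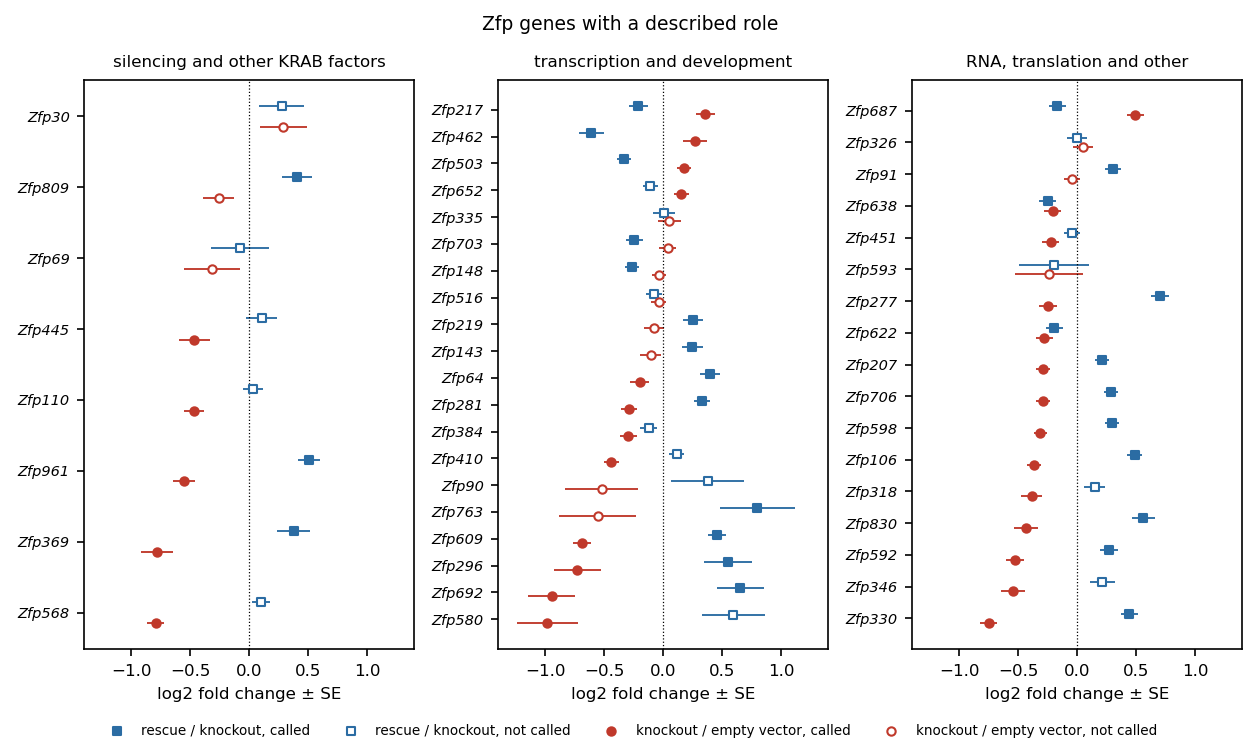
Log2 fold change ± SE (horizontal axis) of the 45 Zfp genes with a listed role, for rescue against knockout (squares) and knockout against empty vector (circles), filled where called, in 3 panels by role. In the right panel 13 of 17 circles are called below 0 and 9 of 17 squares are called above 0.

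Genes of the corepressor machinery that KRAB proteins use did not share 1 direction. Of 33 listed, 31 were tested. In knockout cells 10 fell (32.3%, against 31.1% of all genes tested) and 6 rose (19.4%, against 29.5%). Trim28 had 333, 326 and 335 CPM in rescue libraries, 314, 313 and 337 CPM in knockout libraries and 283, 229 and 247 CPM in empty-vector libraries. Both derived lines lay above empty vector, by 0.35 ± 0.07 in knockout cells (edgeR adjusted p = 0.00033) and 0.39 ± 0.07 in rescue cells (edgeR adjusted p = 0.00017). Setdb1 was at 0.03 ± 0.06 in knockout against empty-vector cells (edgeR adjusted p = 0.74), and the sign of that value changed with the scaling and the filter. Atf7ip, a partner of Setdb1, rose by 0.54 in knockout cells. Rcor1, of a histone demethylase complex, fell by 0.64, Morc2a by 0.57, Cbx1, which reads methylated histone H3, by 0.54, and the deacetylase Hdac2 by 0.50. In rescue against knockout cells, a comparison that shares the knockout libraries, 15 of the 31 rose (48.4%, against 29.5% of all genes tested) and 6 fell (19.4%, against 27.3%), with Cbx1 at 0.57 and Hdac2 at 0.55. In rescue against empty-vector cells 9 rose (29.0%, against 22.4% of all genes tested) and 5 fell (16.1%, against 25.1%).

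Many Zfp genes resemble each other, and no source used here says how the authors' counting treated shared reads. For 133 of the 256 no 75-base stretch of the transcript occurs in a transcript of another gene. Among these, 66 fell and 7 rose in knockout against empty-vector cells, 35 rose and 13 fell in rescue against knockout cells, and 55 fell and 6 rose in rescue against empty-vector cells. The medians were -0.29, 0.08 and -0.23. In 26 genes more than 20% of the stretches are shared, and 11 of these fell and 2 rose in knockout cells. Strand use is not given either, so a gene that overlaps another on the opposite strand cannot be told apart from it.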

How the data were processed

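RENCA cells of 3 lines were profiled by mRNA sequencing, with 3 libraries a line. Per the submitters' processing notes, CASAVA, HISAT2, HISAT and TopHat2 were used (no version or role is given) on genome build mm10. The authors deposited whole-number counts per gene and FPKM values, per the file headers. The read counter and its use of strand are not given in the sources used here. The labels give the molecule as genomic DNA while the protocol describes mRNA, and the series text counts fewer knockout replicates than the table, whose 3 were all used.

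Counts of 13326 genes that passed filterByExpr were tested in edgeR 4.0.16 (R 4.3.3) with TMM scaling and a robust quasi-likelihood fit, 1 mean per line over all 9 libraries. Adjustment (Benjamini-Hochberg) ran over all of these genes, and calls are adjusted p-values under 0.05. Standard errors are on the log2 scale, with n = 3 libraries per line. CPM values use TMM-scaled totals. The test was also run on simulated counts in which few genes changed, about evenly up and down. In these data most genes were called in some comparisons, so that run says nothing about the scaling here. Libraries of 1 line were no duplicates of each other: chi-square values per degree of freedom were 3.64 to 20.1. DESeq2 1.42.0 was an alternative, as were other scalings, filters, count limits, the replicate block and leaving out each library. FPKM values were used only to compare levels between genes.

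Genes were named by rule: the 8 largest rises and falls in the first 2 comparisons (knockout with empty vector, rescue with knockout) and 5 in the third, among called genes with no overlap between libraries and at least 1 CPM in the higher line; the 6 highest by FPKM; the role lists; members of a cluster; and up to 6 corepressor genes with the smallest adjusted p, with Trim28 and Setdb1. Members and lists were chosen with earlier results of these data known. One marker gene of the lists is not reported here. Clusters join genes at most 500000 bases apart. C2H2 fingers and KRAB boxes were found by pattern in translated GENCODE M21 coding sequences, and promoters come from RefSeq (GRCm38.p6).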

Additional observations from a re-analysis of the deposited data

How the results depend on the processing

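Of 2198 repeats of 157 results for single genes, 2037 kept their direction and their side of the threshold, 154 missed it, 1 newly passed it and 6 changed sign. With library totals alone, 10 Zfp genes rose and 146 fell in knockout against empty-vector cells (median -0.43), and 109 rose and 8 fell in rescue against knockout cells (median 0.25), while the median of all genes tested moved to -0.17 and 0.22. With that scaling, Setdb1 was at -0.13 in knockout against empty-vector cells and at 0.12 in rescue against knockout cells, Zfp652 at -0.0 in knockout against empty-vector cells and Zfp687 at 0.02 in rescue against knockout cells. Setdb1 in knockout against empty-vector cells was at -0.02 with no filter on low counts and between -0.02 and 0.04 with 1 library left out. The cause was not tested. Among the 133 genes with no shared 75-base stretch, a set chosen after seeing the data, fewer genes gave 73 calls in knockout against empty-vector cells (7 up, 66 down), 48 in rescue against knockout cells (35 up, 13 down) and 61 in rescue against empty-vector cells (6 up, 55 down). DESeq2 called 120, 77 and 94 Zfp genes in these comparisons. Leaving out 1 library gave 121 to 139 calls in knockout against empty-vector cells (14 to 18 up, 105 to 122 down), 79 to 85 in rescue against knockout cells (52 to 61 up, 23 to 27 down) and 80 to 127 in rescue against empty-vector cells (12 to 18 up, 68 to 109 down). The medians ran over -0.31 to -0.24, 0.05 to 0.10 and -0.24 to -0.17, and 147 to 177 genes differed among the lines. Replicate numbers were not taken to pair the libraries, since no label says that they do. Same-numbered libraries deviated from their group means with correlations of -0.15 to 0.045. Such deviations also hold counting noise, so these values cannot exclude a pairing. No library is known to share a source with another. With the replicate block, 132, 89 and 109 genes were called in the 3 comparisons and 153 among the lines. With a gap of 1000000 bases 18 clusters formed, and the largest still had 20 genes. Depth limits the weakest genes: with a median of 2.21 FPKM, few small changes of low genes can pass the threshold.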
